A study of Mus musculus with 26 samples.

Results

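Transcripts of 10 genes that write, maintain, block or remove DNA methylation were followed in CD-1 mouse embryos, in 26 individually sequenced inner cell masses (ICMs). The genes, taken by symbol from a table of 55254 symbols, were Dnmt1, Uhrf1, Dppa3, Dnmt3a, Dnmt3b, Dnmt3l, Tet1, Tet2, Tet3 and Tdg. All 10 were in the table and all 10 passed the expression filter, which asked for 5 or more libraries with a TPM of 1 or more and which 12034 symbols passed. TPM is transcript abundance per transcript length, scaled to a fixed total per library.

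E2.75 morulae spent 24 hours in culture, the outer cells were lysed by immunosurgery, and each remaining ICM gave 1 FLASH-seq library, a full-length RNA-seq method made for single cells. The conditions crossed LY294002 (LY), an inhibitor of the kinase PI3K, with added fibroblast growth factor 4 (FGF4). LY+FGF4 (6 ICMs) held 10 µM LY and 1 µg/ml FGF4 with heparin, FGF4 (8 ICMs) 1 µg/ml FGF4 with heparin, LY (7 ICMs) 10 µM LY, and DMSO (5 ICMs) the vehicle. Embryos from 5 litters had been mixed before they were shared out, so each library is another embryo whose litter is not known. No group with heparin alone was analysed here, so FGF4 and heparin cannot be told apart. Neither PI3K activity nor DNA methylation was measured in these files.

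DNA methylation of the mouse genome falls during cleavage to a low point in the early blastocyst and is then rebuilt in the epiblast after implantation. Dnmt1, brought to newly copied DNA by Uhrf1, maintains methylation at CpG sites. Dppa3 (Stella, PGC7) keeps Uhrf1 and Dnmt1 from their targets and protects the maternal genome. Dnmt3a and Dnmt3b methylate new sites, helped by Dnmt3l, which has no catalytic activity. Tet enzymes oxidise 5-methylcytosine, and Tdg excises some of the oxidised bases so that repair can restore cytosine. FGF4, made by epiblast cells, directs neighbouring ICM cells to primitive endoderm.

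Genes with a TPM of 1 or more per library had a median number of 8650.5 (7486 to 9534) in LY+FGF4, 10504.5 (8315 to 10871) in FGF4, 10089 (9860 to 10215) in LY and 10692 (10212 to 11367) in DMSO. 6 libraries listed fewer than 9000 genes, namely LY+FGF4 replicates 2, 3, 5 and 8 and FGF4 replicates 2 and 3. TPM holds no read number, so the depth is unknown and no counting interval is given. The median log2 fold change over all tested genes was below 0 in each comparison, from -0.10 for LY against DMSO to -0.24 for LY+FGF4 against FGF4. Markers of both ICM lineages were detected, and so were those of the outer cells. The summed TPM of 10 epiblast markers was 269 to 886.5 in LY+FGF4, 194 to 684 in FGF4, 808.5 to 1257 in LY and 1017 to 1493 in DMSO. That of 15 primitive endoderm markers was 791 to 3692, 1556 to 5376, 214 to 481 and 766 to 1668 in the same order of groups. That of 14 trophectoderm markers, genes of the outer cells, was 279 to 1460, 521 to 1496, 1001 to 1591 and 894 to 1795. Of the trophectoderm markers Dlx3 was at 0 in all 26 libraries and Elf5 in 24, while the primitive endoderm markers Foxa2 and Sox7 were at 0 in 22 and 21. In whole ICMs, fewer cells of a type and less RNA per cell cannot be told apart.

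RefSeq promoter windows, from 250 bases before to 50 bases after a start site, were found for 9 of the 10 genes, all but Dppa3. The windows of Tet1, Tet2 and Tdg are shown because these genes passed the FGF4 test and because CpG sites are the substrate of the enzymes themselves. Capitals mark CpG, on build GRCm38.p6, each read 5′ to 3′ on the strand of its gene.
Tet1, chr10:62887275-62887574, minus strand: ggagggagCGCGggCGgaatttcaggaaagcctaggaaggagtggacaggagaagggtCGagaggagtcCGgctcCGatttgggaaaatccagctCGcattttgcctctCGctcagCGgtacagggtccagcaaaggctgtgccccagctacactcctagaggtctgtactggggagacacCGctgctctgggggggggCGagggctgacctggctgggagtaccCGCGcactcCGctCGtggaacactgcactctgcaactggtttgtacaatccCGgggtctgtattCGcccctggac
Tet2, chr3:133544341-133544640, minus strand: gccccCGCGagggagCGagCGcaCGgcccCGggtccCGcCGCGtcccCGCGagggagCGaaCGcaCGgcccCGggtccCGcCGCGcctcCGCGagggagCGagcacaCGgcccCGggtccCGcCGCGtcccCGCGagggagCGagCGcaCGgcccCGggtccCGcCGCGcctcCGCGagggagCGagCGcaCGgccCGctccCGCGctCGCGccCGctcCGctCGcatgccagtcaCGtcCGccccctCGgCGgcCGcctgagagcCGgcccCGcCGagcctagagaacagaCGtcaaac
Tdg, chr10:82629588-82629887, plus strand: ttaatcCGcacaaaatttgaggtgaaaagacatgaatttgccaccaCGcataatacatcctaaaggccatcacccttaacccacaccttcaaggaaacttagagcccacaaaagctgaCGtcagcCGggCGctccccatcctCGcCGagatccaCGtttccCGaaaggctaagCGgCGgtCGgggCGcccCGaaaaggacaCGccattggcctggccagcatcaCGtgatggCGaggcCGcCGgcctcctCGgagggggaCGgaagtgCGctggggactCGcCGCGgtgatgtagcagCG

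The Tet2 window was dense with CpG, with 57 sites, more than 99.8% of the 32851 mouse windows held. Tdg had 26 sites (more than 83.1% of windows) and Tet1 17 (more than 68.6%), against a median of 7 over all windows (quartiles 3 and 20). The Tet1 window lies inside the gene, whose GENCODE M21 span begins, on the minus strand, at 62908996. The letters CCGGAA, a form of the site bound by ETS factors, which act downstream of FGF signalling, were searched on either strand. They were in none of the 3 windows and in 14.9% of all windows. The letters GTAAACA (either strand), a form of the site bound by FOXO factors, which PI3K signalling holds in check, were in none of the 3 and in 3.65% of all windows. Other forms of these sites were not counted. Windows of the other genes ranged from 2 CpG sites in 1 window of Dnmt1 to 47 in 1 window of Dnmt3a. 1 window of Uhrf1 held CCGGAA.

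Levels of the 10 genes spanned more than 2 orders of magnitude. By the median over the 26 libraries Dppa3 came first at 529.6 TPM, then Uhrf1 at 198.4, Tet1 at 116.7, Tdg at 55.8, Dnmt3b at 37.3, Dnmt3a at 36.5, Tet2 at 29.9, Dnmt3l at 27.1, Dnmt1 at 21.5 and Tet3 at 1.60 TPM. Within DMSO ICMs, Dppa3, Uhrf1 and Tet1 held separate ranges, in that order. Tdg, Dnmt1, Dnmt3a, Dnmt3l, Tet2 and Dnmt3b were at or below 55.4 TPM in every DMSO library and overlapped one another. Tet3, the Tet enzyme of the oocyte and zygote, was at 0 in 8 of the 26 libraries and never above 5.87 TPM.

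**Figure D1:**
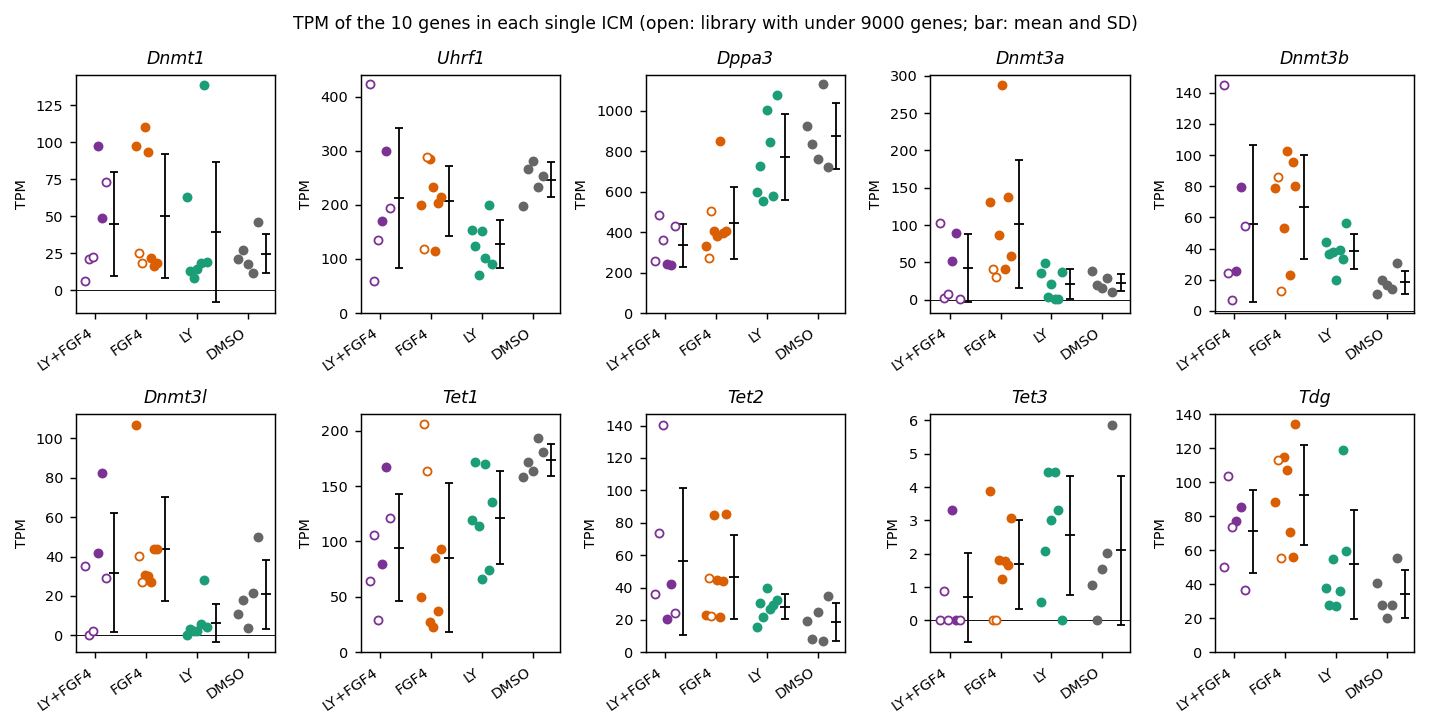
TPM of each of the 10 genes (vertical axis, linear) in every single ICM, by group. Filled points are libraries with at least 9000 genes, open points those with fewer, and bars give the mean and SD. Dppa3 in the 6 LY+FGF4 ICMs, 239.5 to 485 TPM, lies below all 7 LY ICMs, and Tet1 in the 5 DMSO ICMs spans 157.7 to 193.6 TPM, with a coefficient of variation of 8.24%.

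Dppa3, the inhibitor of maintenance methylation, was lower wherever FGF4 had been added. It had 239.5, 307 and 485 TPM (lowest, median and highest) in LY+FGF4 ICMs and 554, 725 and 1079 TPM in LY ICMs. The 2 groups did not overlap, as was the case, in the lower direction, for 1.21% of all tested genes. In FGF4 ICMs Dppa3 had 271, 400 and 850 TPM, against 922.9, 834.6, 763.0, 1132.5 and 720.9 TPM in the DMSO ICMs. 7 of the 8 FGF4 libraries were below every DMSO library, and replicate 6, at 850 TPM, was inside the DMSO range. The means were 335 ± 106 TPM in LY+FGF4 and 769 ± 213 TPM in LY (SD, n = 6 and 7), and 443 ± 178 TPM in FGF4 and 875 ± 163 TPM in DMSO (n = 8 and 5).

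On the log2(TPM + 1) scale Dppa3 differed by -1.21 (SE 0.23, adjusted p = 0.00202) between LY+FGF4 and LY. Between FGF4 and DMSO it differed by -1.04 (SE 0.23, adjusted p = 0.0127). These p-values are from limma's moderated test with Benjamini-Hochberg adjustment over the 12034 genes, two-sided, and a gene under 0.05 is said to pass, to rise or to fall. 1 of the 10 genes passed between LY+FGF4 and LY, where 6.30% of all tested genes did, and 2 passed between FGF4 and DMSO, where 2.44% did. The FGF4 effect averaged over both LY backgrounds was -1.12 (95% interval -1.46 to -0.79, adjusted p = 4.03e-05). That averaged fall was past the threshold in all 8 alternative settings and in each of 26 fits without 1 library. The LY+FGF4 against LY fall missed it when the library's gene number entered as a covariate (adjusted p = 0.0544).

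Lineage markers moved with Dppa3. Between FGF4 and DMSO 5 of 10 epiblast markers fell, 5 of 14 tested primitive endoderm markers rose and 2 of 12 tested trophectoderm markers fell, and in the averaged FGF4 effect 7 fell, 8 rose and 3 fell. FGF4 replicate 6, the library with the highest Dppa3 of its group, also had the lowest summed primitive endoderm markers (1556 TPM) and the highest summed epiblast markers (684 TPM) of that group. Its summed trophectoderm markers (1496 TPM) were the highest of that group as well. LY+FGF4 replicates 3, 5 and 8 had 485, 359 and 431 TPM of Dppa3 and 1075, 921 and 791 TPM of primitive endoderm markers. LY+FGF4 replicates 2, 6 and 7 had 256, 242 and 239.5 TPM of Dppa3 and 3309, 3074 and 3692 TPM of primitive endoderm markers. Summed trophectoderm markers were 1460, 995 and 1103 TPM in LY+FGF4 replicates 3, 5 and 8. In replicates 2, 6 and 7 of that group they were 279, 885 and 542 TPM. Summed epiblast markers overlapped, with 518, 397 and 886.5 TPM in the first set and 269, 591 and 643 TPM in the second. The part of lineage makeup in the Dppa3 result was not tested.

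The genes whose log2(TPM + 1) followed Dppa3 most closely over the 26 libraries, of 10889 compared, were Khdc3 (Pearson r 0.913), a subunit of the subcortical maternal complex of the oocyte, Sat1 (0.877), a polyamine acetyltransferase, and Nanog (0.857), a transcription factor of the epiblast. After the group means were taken out these values were 0.701, 0.676 and 0.668. Libraries share their group and composition, so these values are descriptions. Dppa3 spans 122626410 to 122630272 on chromosome 6 (plus strand, protein coding, GENCODE M21 on GRCm38). The pseudogene symbol Dppa3-ps was above 0 in 3 FGF4 libraries, with at most 32.36 TPM, and in no library of the other groups.

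The maintenance pair itself did not pass any test in the fit over all 26 libraries without library weights. Uhrf1, which recruits Dnmt1, had 71.2, 124 and 199 TPM (lowest, median and highest) in LY ICMs, against 197.4, 266.1, 280.7, 233.8 and 252.9 TPM in DMSO ICMs. 6 of the 7 LY libraries were below every DMSO library, but the difference of -1.01 (SE 0.35) had an adjusted p of 0.278. It passed with library weights and without the 6 libraries that list under 9000 genes, the smaller adjusted p being 0.0117. Uhrf1 had 58.4, 182 and 423 TPM in LY+FGF4 ICMs and 116, 209.5 and 289 TPM in FGF4 ICMs, and these ranges overlapped (difference -0.14, 95% interval -0.79 to 0.52). Its FGF4 difference was -0.31 against DMSO and its averaged FGF4 effect was 0.13 (95% interval -0.35 to 0.61).

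Dnmt1 was uneven within every group. It had 5.92, 35.6 and 97.7 TPM in LY+FGF4, 16, 23.5 and 110.1 TPM in FGF4, 8.28, 18.5 and 138.5 TPM in LY, and 21.1, 26.9, 17.7, 11.6 and 46.1 TPM in the DMSO ICMs. 17 of the 26 libraries were at or below 26.9 TPM and the other 9 at or above 46.1 TPM, and no library lay between. Those 9 were 3 LY+FGF4, 3 FGF4, 2 LY and 1 DMSO libraries. Dnmt1 differed by 0.69 for FGF4 against DMSO, 0.38 for LY+FGF4 against LY and 0.13 for LY against DMSO, none past the threshold.

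**Figure D2:**
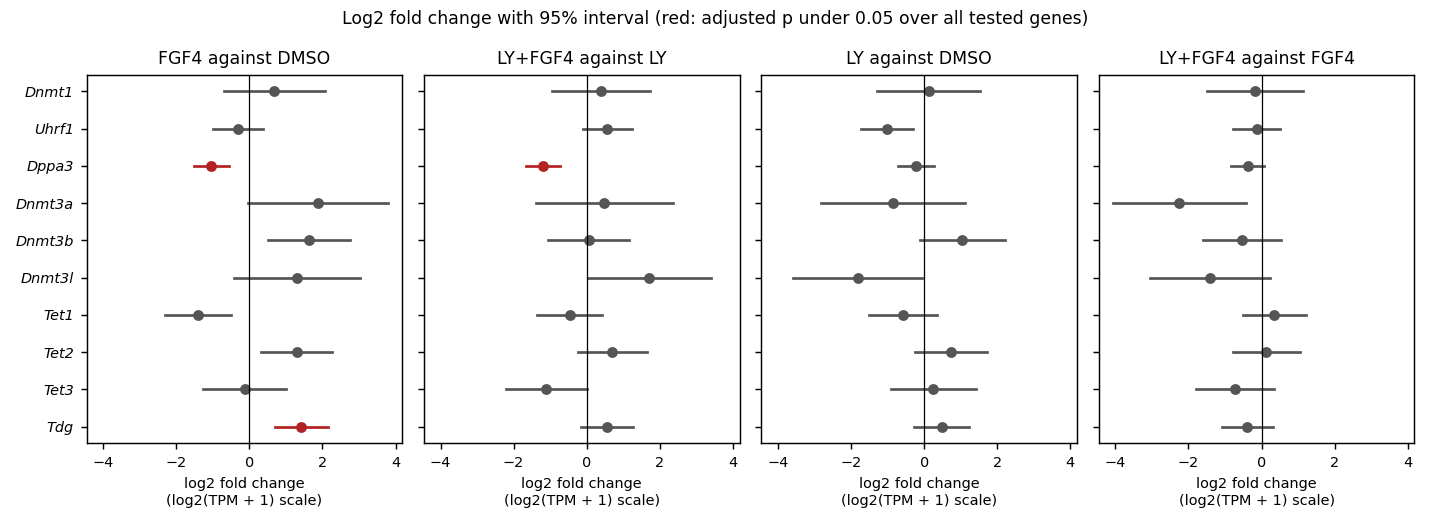
Log2 fold change of each gene on the log2(TPM + 1) scale (horizontal axis) with its 95% interval, in the 4 pairwise comparisons. Red marks an adjusted p under 0.05 over all tested genes. Dppa3 is red and below 0 in both comparisons with FGF4 on top, Tdg is red at 1.42 for FGF4 against DMSO, and no gene is red for LY against DMSO or for LY+FGF4 against FGF4.

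The de novo enzymes had higher means with FGF4, with wide spreads. None passed a test in the fit over all 26 libraries without library weights. Without the 6 libraries under 9000 genes, which leaves LY+FGF4 with replicates 6 and 7, the averaged FGF4 effect passed for Dnmt3a (2.40, adjusted p = 0.0163), Dnmt3b (1.08, adjusted p = 0.0336) and Dnmt3l (2.53, adjusted p = 0.00456). Over all 26 libraries these effects were 1.18, 0.84 and 1.51. The LY+FGF4 replicates kept, 6 and 7, had 3074 and 3692 TPM of primitive endoderm markers. Those left out, replicates 2, 3, 5 and 8, had 3309, 1075, 921 and 791 TPM. Over the 26 libraries Dnmt3a, Dnmt3b and Dnmt3l followed the log2 sum of these markers with Pearson r 0.628, 0.387 and 0.722. After the group means were taken out these were 0.546, 0.492 and 0.488. The part of lineage makeup in the de novo results was not tested. Dnmt3a had 29.8, 73.1 and 287 TPM (lowest, median and highest) in FGF4 ICMs, against 38.8, 19.8, 15.6, 29.4 and 10.1 TPM in DMSO ICMs. 7 of the 8 FGF4 libraries were above every DMSO library, and the difference of 1.88 (SE 0.93) had an adjusted p of 0.334. In LY+FGF4 ICMs Dnmt3a had 0.34, 29.9 and 102.7 TPM, and in LY ICMs 0.85, 21 and 49.2 TPM. LY+FGF4 libraries thus ran from near 0 to within the FGF4 range (LY+FGF4 against FGF4 -2.25, 95% interval -4.06 to -0.43, adjusted p = 0.157).

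Dnmt3b had 12.7, 79.5 and 102.6 TPM in FGF4 ICMs, against 11, 19.6, 16.4, 13.8 and 30.4 TPM in DMSO ICMs. 6 of the 8 FGF4 libraries were above all DMSO libraries, with a difference of 1.63 (SE 0.55, adjusted p = 0.113). That difference passed in 1 of 13 fits without 1 library of these groups, the fit without FGF4 replicate 3 (adjusted p = 0.0441). It also passed with library weights and without the 6 libraries under 9000 genes. Dnmt3b had 6.85, 40.2 and 145 TPM in LY+FGF4 ICMs and 19.5, 38.0 and 56.6 TPM in LY ICMs, and 6 of the 7 LY libraries were also above all DMSO libraries (1.05, adjusted p = 0.655). Its antisense transcript Dnmt3bos reached 3.94 TPM in FGF4 and 10.24 TPM in LY and was at 0 in the other groups.

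Dnmt3l, the regulatory partner, was the de novo gene with the lowest values under LY. It had 0, 3.03 and 27.9 TPM in LY ICMs, against 11, 17.8, 3.5, 21.7 and 49.9 TPM in DMSO ICMs. It had 0, 32.0 and 82.1 TPM in LY+FGF4 ICMs and 27, 35.5 and 106.9 TPM in FGF4 ICMs. The LY groups thus reached down to 0, and 4 of the 7 LY libraries were below all DMSO libraries. Dnmt3l differed by -1.82 (SE 0.87, adjusted p = 0.560) for LY against DMSO and by 1.72 (SE 0.82, adjusted p = 0.222) for LY+FGF4 against LY. Of 13 fits without 1 library of these groups, the second passed only without LY+FGF4 replicate 3 (adjusted p = 0.0408). It also passed without the 6 libraries under 9000 genes. The averaged FGF4 effect on Dnmt3l of 1.51 (adjusted p = 0.0911) also passed with library weights (adjusted p = 0.0437). Of 26 fits without 1 library it passed only without LY+FGF4 replicate 3 (adjusted p = 0.0138) or 5 (0.0479) or LY replicate 7 (0.0458). The averaged FGF4 effect on Dnmt3b passed in 1 of these 26 fits, that without LY+FGF4 replicate 5 (adjusted p = 0.0385). The averaged LY effect on Dnmt3l was -1.61 (adjusted p = 0.116).

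Among the oxidising enzymes, Tet1 and Tet2 moved in opposite directions under FGF4. Tet1, the main Tet enzyme of pluripotent cells, was steady in DMSO ICMs at 157.7, 171.3, 163.1, 193.6 and 180.6 TPM (173 ± 14.3, SD, n = 5). It had 22.7, 67.4 and 205.8 TPM (lowest, median and highest) in FGF4 ICMs. 6 of the 8 FGF4 libraries were below every DMSO library, and the others, replicates 2 (205.8 TPM) and 3 (163.6 TPM), were the 2 FGF4 libraries under 9000 genes. In LY+FGF4 ICMs it had 29.6, 92.5 and 168 TPM, and in LY ICMs 65.8, 119 and 171 TPM, with 5 of the 7 LY libraries below all DMSO libraries.

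The averaged FGF4 effect on Tet1 was -0.93 (SE 0.31, adjusted p = 0.0444), made up of -1.40 (SE 0.44, adjusted p = 0.0891) against DMSO and -0.46 (SE 0.43, adjusted p = 0.575) against LY. Of 13 fits without 1 library of these groups, the fall against DMSO passed only without FGF4 replicate 2 (adjusted p = 0.0368) or 3 (0.0490). It also passed with library weights (adjusted p = 0.00164) and without the 6 libraries under 9000 genes (0.00352). In that smaller set the difference between LY+FGF4 and LY changed sign. The averaged call lay near the threshold and was lost in 17 of 26 fits without 1 library, with adjusted p from 0.0567 to 0.0791, and with no filter (adjusted p = 0.0697). Trophectoderm and epiblast markers fell and primitive endoderm markers rose in the same comparison, as given for Dppa3, and their part in the Tet1 and Tet2 results was not tested.

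Tet2 had 21.7, 44.4 and 85.4 TPM in FGF4 ICMs, against 19.7, 8.4, 25.1, 6.7 and 34.7 TPM in DMSO ICMs. It had 20.5, 39.1 and 140.6 TPM in LY+FGF4 ICMs and 15.8, 29.1 and 39.8 TPM in LY ICMs. Both FGF4 groups overlapped their partners at the low end, with 5 of 8 FGF4 libraries above all DMSO libraries and 3 of 6 LY+FGF4 libraries above all LY libraries. The averaged FGF4 effect was 1.00 (SE 0.33, adjusted p = 0.0435), from 1.30 (adjusted p = 0.148, and 0.0422 with library weights) against DMSO and 0.70 (adjusted p = 0.396) against LY. It was lost in 17 of 26 fits without 1 library (adjusted p 0.0504 to 0.0961), with the gene number as a covariate, with no filter and without the 6 libraries under 9000 genes.

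Tet3 was at 0 in 4 of 6 LY+FGF4, 2 of 8 FGF4, 1 of 7 LY and 1 of 5 DMSO libraries. Its means were 0.698 ± 1.33 TPM in LY+FGF4, 1.68 ± 1.34 TPM in FGF4, 2.55 ± 1.77 TPM in LY and 2.10 ± 2.24 TPM in DMSO. No difference passed, and values this low do not settle a direction.

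Over the 26 libraries, genes whose log2(TPM + 1) followed Tet1 closely included Rnaseh2a (Pearson r 0.755), a subunit of an enzyme that removes ribonucleotides from DNA, and Pttg1ip (0.707). Tet2 was most like Pja2 (0.703), a ubiquitin ligase, Cdk5rap3 (0.691) and Mir8114 (0.681). These are descriptions of libraries that share groups and composition. Tet1 spans 62804570 to 62908996 on chromosome 10 and Tet2 133463679 to 133545139 on chromosome 3, both on the minus strand.

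Tdg, the glycosylase that excises some of the bases made by the Tet enzymes, rose with FGF4. It had 55.2, 97.8 and 134 TPM (lowest, median and highest) in FGF4 ICMs, against 40.6, 27.8, 20.2, 27.8 and 55.4 TPM in DMSO ICMs. 7 of the 8 FGF4 libraries were above every DMSO library, and the eighth lay just under the highest of them. The means were 92.5 ± 29.5 TPM in FGF4 and 34.4 ± 13.9 TPM in DMSO (SD, n = 8 and 5). The difference was 1.42 (SE 0.36, adjusted p = 0.0273). It was not past the threshold without DMSO replicate 6 (adjusted p = 0.0760), 7 (0.107) or 8 (0.0686) or FGF4 replicate 8 (0.0518).

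With LY present the Tdg groups overlapped throughout. Tdg had 36.4, 75.4 and 104 TPM in LY+FGF4 ICMs and 27, 38.1 and 119 TPM in LY ICMs, with a difference of 0.55 (SE 0.35, adjusted p = 0.369). The averaged FGF4 effect of 0.98 (95% interval 0.48 to 1.49, adjusted p = 0.00847) held in all 8 settings and all 26 fits without 1 library. The genes most like Tdg were Lamc1 (Pearson r 0.790), a laminin chain of the basement membrane that primitive endoderm lays down, Eprs (0.782), a tRNA synthetase, and Xpo1 (0.764), a nuclear exporter. After the group means were taken out these were 0.538, 0.642 and 0.663. Tdg spans 82629828 to 82650799 on the plus strand of chromosome 10, and the pseudogene symbol Tdg-ps had at most 5.13 TPM in any library. The summed primitive endoderm markers were higher in FGF4 than in DMSO ICMs with 1 overlap, FGF4 replicate 6, which had 70.5 TPM of Tdg. Their part in the Tdg result was not tested.

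**Figure D3:**
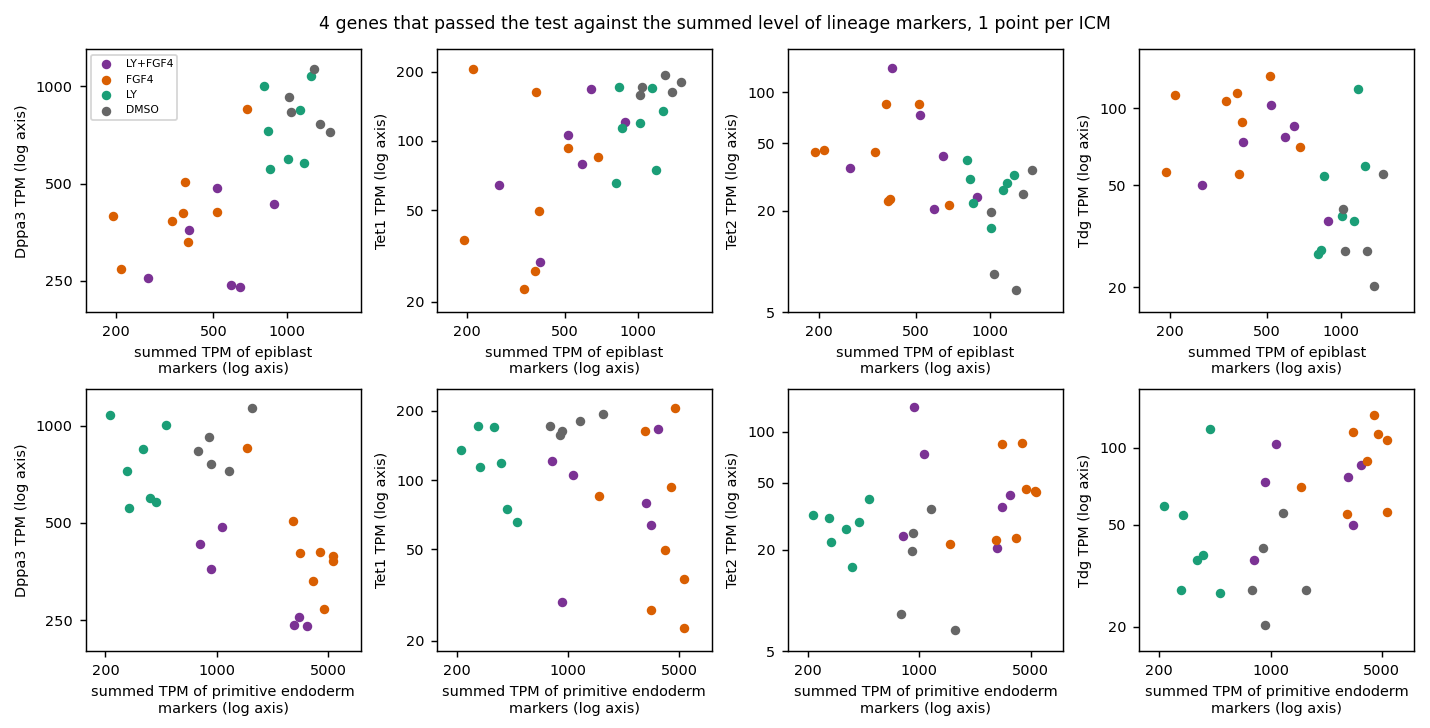
TPM of Dppa3, Tet1, Tet2 and Tdg (vertical, log axis) against the summed TPM of epiblast markers (top) and primitive endoderm markers (bottom, both log axes), 1 point per ICM, coloured by group. LY+FGF4 ICMs with 3074 TPM or more of primitive endoderm markers have 239.5 to 256 TPM of Dppa3, and those with 1075 TPM or less have 359 to 485 TPM, while LY ICMs, all at or below 481 TPM of these markers, have 554 TPM or more.

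Averaged over both LY backgrounds, the FGF4 effect passed for 4 of the 10 genes, Dppa3 and Tet1 lower and Tet2 and Tdg higher, where 13% of all tested genes passed. The median over the 10 genes was 0.69, beside -0.19 over all tested genes. At an unadjusted p under 0.05 there were 6 of 10, the others being Dnmt3l (1.51) and Dnmt3b (0.84), beside 27.2% of all genes. FGF4 against DMSO and the averaged effect share the DMSO and FGF4 libraries, so their values are not independent.

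Without library weights, LY left the 10 genes without a call over all 26 libraries. By limma 0 of 10 passed for LY against DMSO, where 0.374% of tested genes passed, 0 of 10 for LY+FGF4 against FGF4, where 3.55% did, and 0 of 10 for the averaged LY effect, where 4.64% did. At an unadjusted p under 0.05 the counts were 2 (Uhrf1 and Dnmt3l), 1 (Dnmt3a) and 3 (Dnmt3a, Dnmt3l and Uhrf1), beside 8.59%, 18.8% and 19.2% of all genes. The averaged LY effect was -1.55 for Dnmt3a (95% interval -2.89 to -0.21, adjusted p = 0.178) and -0.57 for Uhrf1 (95% interval -1.06 to -0.09, adjusted p = 0.164). For Dppa3 the interval was -0.63 to 0.04, for Tdg -0.46 to 0.56 and for Tet1 -0.75 to 0.52, so changes beyond these bounds lie outside the 95% intervals. Primitive endoderm markers fell with LY, 5 of 14 in the averaged effect.

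The FGF4 effect was not shown to depend on LY for any of the 10 genes. The interaction, the LY effect with FGF4 minus that without, passed for 0 of 10 genes by limma, where 0.0499% of tested genes passed. At an unadjusted p under 0.05 there was 1, Dnmt3b (-1.58, 95% interval -3.15 to -0.01, adjusted p = 0.822), beside 6.03% of all genes. For Tdg the interaction was -0.87 (95% interval -1.88 to 0.15) and for Tet1 0.93 (-0.33 to 2.20). These intervals are wider than the FGF4 effects themselves.

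Other genes of the pathway were followed in 6 lists with 98 genes, of which 79 were tested. In the averaged FGF4 effect 14 of the 79 passed, 5 higher and 9 lower (17.7%, beside 13% of all tested genes). In the averaged LY effect 7 passed, 1 higher and 6 lower (8.86%, beside 4.64%). Between pairs of groups 2 passed for FGF4 against DMSO (Dppa2 and Grb10), 0 for LY against DMSO, 3 for LY+FGF4 against FGF4 (Grb10, Idh1 and Rpl10l) and 3 for LY+FGF4 against LY (Cdkn1c, Dppa2 and Hdac1). These are 2.53%, 0%, 3.80% and 3.80% of the 79, beside 2.44%, 0.374%, 3.55% and 6.30% of all tested genes. Of the 29 gene-by-comparison results that passed, 2 did so in every setting and every fit without 1 library, Hdac1 for averaged FGF4 and Grb10 for LY+FGF4 against FGF4. 24 of the 29 were lost with the gene number of a library as a covariate.

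Among writers, maintenance partners and readers, 1 of 13 tested genes passed for averaged FGF4. Hdac1, a histone deacetylase, fell by 0.76 (adjusted p = 0.000952), with 503 ± 235 TPM in LY+FGF4 and 899 ± 127 TPM in LY, and 408 ± 99.0 TPM in FGF4 and 607 ± 101 TPM in DMSO. With LY 0 of the 13 passed by limma and 3 had an unadjusted p under 0.05. The smallest p were of Uhrf2, a relative of Uhrf1 (-1.54, adjusted p = 0.0758), and Hdac1 (0.40, adjusted p = 0.120).

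Of the 12 genes listed for the KAP1 complex and imprint protection, 2 fell in the averaged FGF4 effect, Dppa2 and Zfp42. Dppa2, a chromatin protein of pluripotent cells, fell by 1.05 (adjusted p = 0.000863) and had 438 ± 163 TPM in FGF4, against 908 ± 226 TPM in DMSO. Zfp42 (Rex1) fell by 0.63 (adjusted p = 0.0220). Trim28, the KAP1 scaffold itself, did not pass for averaged FGF4. It fell by 0.48 in the averaged LY effect (adjusted p = 0.0462), a call lost in 21 of 26 fits without 1 library.

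TET cofactor supply and base excision repair had 17 tested genes of 21. Idh3a, a subunit of mitochondrial isocitrate dehydrogenase, rose by 0.45 with FGF4, while Lig3, a DNA ligase, fell by 1.00 and Ung, the uracil glycosylase, by 0.63. The Idh3a and Lig3 calls were each lost in 20 of 26 fits without 1 library. In the averaged LY effect 4 genes fell. Idh1, the cytosolic enzyme that makes the Tet cosubstrate 2-oxoglutarate, fell by 0.97 (adjusted p = 0.00986) and had 161 ± 67.7 TPM in LY+FGF4 and 378 ± 185 TPM in FGF4, and 123 ± 40.6 TPM in LY and 201.5 ± 44.1 TPM in DMSO. Gadd45a, a stress gene linked to demethylation, fell by 2.83 in this averaged effect (adjusted p = 0.0188), while LY against DMSO alone did not pass. Its TPM was 0 in 5 of 7 LY libraries and in no DMSO library, and values of 0 also occurred in LY+FGF4 and FGF4 libraries. Apex1, the abasic site endonuclease, fell by 0.77 and Idh3a by 0.56, both lost in 6 of 26 fits without 1 library.

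S-adenosylmethionine supply had 10 tested genes of 12. Bhmt, which remethylates homocysteine, fell by 1.16 (adjusted p = 0.00620) and Mat2a, which makes the methyl donor, by 0.76 (adjusted p = 0.0354) with FGF4, the second lost in 5 of 26 fits without 1 library. With LY 0 of 10 passed by limma and 2 had an unadjusted p under 0.05, Mat2a (0.67, adjusted p = 0.110) and Srm (-0.57, adjusted p = 0.135).

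Germline genes that promoter methylation silences had 14 tested members of 18. Sycp3, of the synaptonemal complex, rose by 1.11 (adjusted p = 0.0126) in the averaged FGF4 effect. It had 188 ± 110 TPM in FGF4 and 70.6 ± 24.9 TPM in DMSO, a comparison in which it did not pass. Dpep3 passed in the lower direction in the averaged FGF4 effect, and its TPM was 0 in each of the 6 LY+FGF4 libraries and in 6 of 8 FGF4 libraries. With LY 0 of 14 passed by limma and 3 had an unadjusted p under 0.05, the smallest of Tuba3a (-1.31, adjusted p = 0.0930) and Rpl10l (-1.56, adjusted p = 0.129).

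Imprinted genes had 13 tested members of 19 and moved both ways. Grb10, an adaptor that restrains insulin-type receptors, had 54.4, 66.4 and 167 TPM (lowest, median and highest) in FGF4 ICMs and 5.16, 16.5 and 17.2 TPM in DMSO ICMs. The groups did not overlap, as for 1.13% of tested genes in the higher direction (2.70, adjusted p = 0.00375). In LY+FGF4 ICMs it had 3.71, 13.4 and 53.7 TPM, below every FGF4 library, as for 0.490% of tested genes (-2.36, adjusted p = 0.00555). Sfmbt2, a Polycomb-group gene, rose by 1.78 and Snrpn, of the spliceosome, by 1.05 in the averaged FGF4 effect. Cdkn1c, a cell cycle inhibitor, fell by 2.71 in the averaged FGF4 effect (adjusted p = 0.00277). It was at 0 in 5 of 6 LY+FGF4 libraries and at 50.6 TPM in the sixth, replicate 8, against 8.77 to 95.7 TPM in LY. Slc38a4, an amino acid transporter, rose by 0.68 with LY, lost in 14 of 26 fits without 1 library.

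**Figure D4:**
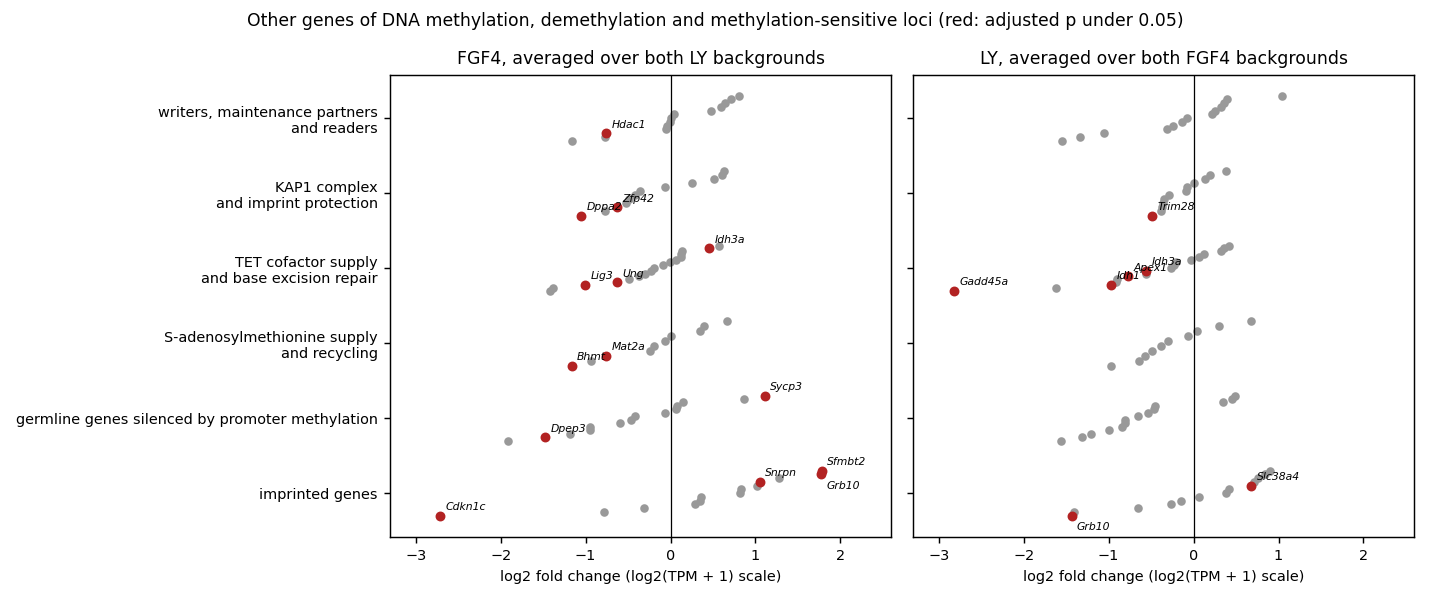
Log2 fold change on the log2(TPM + 1) scale (horizontal axis) of the tested genes of 6 lists, 1 point per gene, for the averaged FGF4 effect (left) and the averaged LY effect (right). Red points passed the test and carry their names. Grb10 is at 1.77 with FGF4 and at -1.44 with LY. In the FGF4 panel the red points of the KAP1 and imprint protection list, Dppa2 and Zfp42, lie below 0. Those of the methyl donor list, Bhmt and Mat2a, also lie below 0.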

How the data were processed

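The authors deposited 1 table of TPM per gene symbol, 1 column per ICM. The reads had been trimmed and de-duplicated, per the labels. STAR, RSEM and the mm10 build are named per the submitters' processing notes. Versions, annotation and strandedness are not given in the sources, so reads of overlapping antisense genes cannot be told apart. All 26 columns were mapped by name to samples, and 0 were left unmapped. limma 3.58.1 (R 4.3.3, trend and robust options) was fitted on log2(TPM + 1) with 1 mean per group over all 26 libraries, after tests on simulated data. Folds on this scale understate changes of low genes. The p-values weigh group differences against the spread between libraries. With 1 library per embryo, that spread mixes embryo differences with library noise. Gene coordinates are from GENCODE M21, which may not be the authors' annotation, and promoters from RefSeq.

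Alternatives were a pseudocount of 0.1, no filter, a filter of 13 libraries, median-ratio scaling, library weights, the gene number of a library as a covariate, the replicate number as a block, leaving out 6 libraries under 9000 genes, and leaving out each library. The members and lists were chosen with earlier results of these data known. Named were all 10 genes, the 3 genes most like each gene that passed (predicted, Xist and Y-linked symbols left out), and, of the lists, genes that passed or otherwise the 2 of smallest p, the last for the averaged effects alone. 1 gene that this rule names is not reported here. The 17 libraries of low Dnmt1 were singled out after values were seen.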

Additional observations from a re-analysis of the deposited data

Results flagged for a closer look

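Dnmt3l in FGF4 replicate 1 stood apart from its group, with 106.86 TPM, while the other 7 FGF4 libraries had 26.97 to 43.78 TPM. On the log2(TPM + 1) scale the gap to the nearest library was 0.651 of the whole range, above Dixon's 95% critical value of 0.526 for 8 samples. 40 sets of values (10 genes in 4 groups) were examined this way and 1 was marked, where chance marks about 1 in 20. The same library listed Aire, a gene on the opposite strand that overlaps Dnmt3l, at 21.73 TPM. Aire was at 0 in the other FGF4 libraries and at most 2.03 TPM in DMSO and 1.79 TPM in LY. Whether reads of one gene were counted for the other was not tested.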

How the results depend on the processing

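Directions of the 4 genes that passed for averaged FGF4 held in every alternative run. Between FGF4 and DMSO the genes called, 294 in all, were 1074 with library weights, 181 with the gene number as a covariate, 41 with the replicate block and 470 without the libraries under 9000 genes. Of the 10 genes 5, 2, 0 and 4 were called there, and without 1 library 112 to 431 genes and 1 to 4 of the 10 (112 without DMSO replicate 7, 145 without 6, 176 without 3). For LY against DMSO (45) the same 4 settings gave 496, 19, 5 and 134 genes, weights and the smaller set called 1 of the 10 each, and the range without 1 library was 16 to 50 (20, 27, 29 and 16 without DMSO replicates 3, 6, 8 and 9). For LY+FGF4 against FGF4 (427) they gave 111, 187, 224 and 171, and 282 (without FGF4 replicate 7) to 589 without 1 library. For LY+FGF4 against LY (758) weights gave 356 and the covariate 108 genes, the covariate called 0 and the smaller set 2 of the 10, and without 1 library 528 to 872 genes and 1 to 2 of the 10 passed. Averaged FGF4 (1566) gave 392 with the covariate and 906 with the block, called 2 of the 10 with no filter, 5 with weights and 6 without the libraries under 9000 genes, and 1227 to 1669 genes and 2 to 4 of the 10 without 1 library (2 without DMSO replicate 3, 6 or 8, FGF4 replicate 4, 5 or 7, or LY replicate 2, 3, 4, 6 or 8). Averaged LY (558) gave 268 and 219, and 401 to 670. The interaction (6) gave 2 with the block and 27 in the smaller set, and 2 (without LY replicate 4 or 8) to 11 (without LY+FGF4 replicate 3), with 3 without DMSO replicate 3 or 8. The cause was not tested. Replicate numbers did not pair libraries (31 pairs, median residual r -0.00406, range -0.0824 to 0.0680, and 2 of 24 libraries most like their own number). With the block Dppa3 (adjusted p = 0.103) and Tdg (0.149) missed the threshold for FGF4 against DMSO, and Tet1 missed it for averaged FGF4. Uncalled values that changed sign were, with weights, Tet3 FGF4 against DMSO 0.083, Dnmt1 LY against DMSO -0.02, Dnmt1 LY+FGF4 against FGF4 0.10, Dnmt3b LY+FGF4 against LY -0.027, averaged LY Dnmt1 0.041 and Tet1 0.094, and Dnmt1 interaction 0.12. With the covariate they were Tet3 FGF4 against DMSO 0.37 and averaged FGF4 0.14, LY+FGF4 against FGF4 Dnmt1 0.90, Tet1 -0.24 and Tet3 0.28, averaged LY Dnmt1 0.77 and Tet3 0.51, and Dnmt1 interaction 0.25. With the block they were Tet3 FGF4 against DMSO 0.16, Dnmt1 LY+FGF4 against FGF4 0.045, averaged LY Dnmt1 0.23 and Tet3 0.11, and Dnmt3l interaction -0.21. Without the 6 libraries they were Tet3 FGF4 against DMSO 0.29, LY+FGF4 against FGF4 Dnmt1 0.66, Dnmt3l 0.49, Uhrf1 0.16 and Tet2 -0.56, Tet1 LY+FGF4 against LY 0.006, averaged LY Dnmt1 0.39 and Tet1 0.37, and interaction Dnmt1 0.53 and Dnmt3a 0.29. Median-ratio scaling turned averaged LY Dnmt1 to 0.001. Without 1 library the ranges of results that changed sign were, for FGF4 against DMSO, Tet3 -0.46 to 0.23, and for LY against DMSO Dnmt1 -0.28 to 0.38 and Tet3 -0.086 to 0.61. For LY+FGF4 against FGF4 they were Dnmt1 -0.49 to 0.27, Uhrf1 -0.39 to 0.18 and Tet2 -0.20 to 0.34, and for LY+FGF4 against LY Dnmt3a -0.046 to 1.21 and Dnmt3b -0.33 to 0.51. For averaged LY they were Dnmt1 -0.23 to 0.20, Tet1 -0.22 to 0.028 and Tdg -0.065 to 0.14, and for the interaction Dnmt1 -0.62 to 0.15 and Dnmt3l -0.071 to 1.20. Depth is unknown, so low genes such as Tet3 and Dnmt3l carry an error that TPM does not show.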
